A study of Mus musculus with 9 samples.

Results

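Serum response factor, SRF, is a transcription factor that switches on many genes of the actin cytoskeleton. Its own gene and 9 of its well-known cytoskeletal targets are described here, as measured by array in N1E-115 cells, a mouse neuroblastoma line that grows neurites. The 10 genes are Srf, the calponin gene Cnn2, the vinculin gene Vcl, the zyxin gene Zyx, the actin genes Acta2 and Actg1, the transgelin gene Tagln, the tropomyosin gene Tpm1, the myosin light chain gene Myl9 and Fhl2. They were taken by symbol, with 1 probe set per gene, from 22180 genes measured. All 10 had a probe set of their own.

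Expression was measured on 9 arrays in 3 groups of 3. Cells of the first group carried control siRNA and were collected 4 h after differentiation began, and cells of the second carried control siRNA and were collected at 24 h. The third group carried a pool of siRNAs against Hmgn5, a gene for a nucleosome-binding chromatin protein, and was collected at 24 h. Every group had been transfected with siRNA at 80 nM, kept overnight without serum and replated on laminin at 10 µg/ml. All samples come from the same line. Nothing in the labels tells separate cultures from repeats of 1 culture, and the spread behind each p-value may therefore be technical. There was no Hmgn5 siRNA group at 4 h on these arrays.

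SRF works with 2 kinds of partner. The MRTF cofactors are held by monomeric actin and are freed when actin polymerises, for instance when adhesion to matrix builds stress fibres, and they drive genes for actin, its binding proteins and adhesion plaques. The ternary complex factors, such as Elk1, act downstream of MAP kinase and drive immediate-early genes. In neurons SRF is known for its part in neurite growth and guidance, and Srf is itself an SRF target. SRF binds the CArG box, an element of 10 bases with an A- and T-rich core.

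The CArG boxes of these genes are shown because this is the element that SRF binds. A start window, 250 bases before to 50 bases after an annotated transcript start, was taken from RefSeq (GRCm38.p6) for 9 of the 10 genes, all but Tagln. A consensus CArG box, whose search pattern is the same on both strands, was found in 6 of these 9 genes. Among all 27025 genes with such a window, 1.81% held one. Because the genes were picked as known SRF targets, setting these shares side by side is no test. The stretches below are printed 5′ to 3′ on the strand of the gene, end before the transcript start and have each consensus box in capitals.
Srf (chr17:46556163-46556262, minus strand): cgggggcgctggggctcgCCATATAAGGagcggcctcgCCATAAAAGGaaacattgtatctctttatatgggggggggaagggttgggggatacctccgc
Cnn2 (chr10:79988500-79988599, plus strand): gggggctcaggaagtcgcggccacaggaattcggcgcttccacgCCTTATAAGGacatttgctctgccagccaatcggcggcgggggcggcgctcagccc
Vcl (chr14:20929151-20929200, plus strand): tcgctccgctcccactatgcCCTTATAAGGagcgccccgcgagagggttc
Actg1 (chr11:120348556-120348605, minus strand): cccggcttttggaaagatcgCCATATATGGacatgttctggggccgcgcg
Myl9 (chr2:156775283-156775332, plus strand): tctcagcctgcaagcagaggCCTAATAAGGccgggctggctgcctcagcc
Fhl2, first window (chr1:43163963-43164012, minus strand): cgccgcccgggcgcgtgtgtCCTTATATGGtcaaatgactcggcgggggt
Fhl2, second window (chr1:43196828-43196877, minus strand): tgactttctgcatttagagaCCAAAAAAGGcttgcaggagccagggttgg

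Srf held 2 boxes, beginning 82 and 62 bases before its start. The single box began 56 bases before the start in Cnn2, 90 in Actg1, 161 in Myl9 and 227 in Vcl. Fhl2 has 2 windows, and each held a box, 31 bases before the start in the first and 96 in the second. The box of Cnn2 and that of Vcl are the same 10 bases. Acta2 and Tpm1 held no consensus box but 2 sites each that are 1 base away from it, and Zyx held neither in its window. Such near matches are common, being present in 22.5% of genes. The stretch of Acta2 is shown with its near matches in capitals, because smooth muscle actin is the textbook CArG gene.
Acta2 (chr19:34255378-34255477, minus strand): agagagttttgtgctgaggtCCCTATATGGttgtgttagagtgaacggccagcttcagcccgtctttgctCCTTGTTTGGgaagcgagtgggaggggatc

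**Figure D1:**
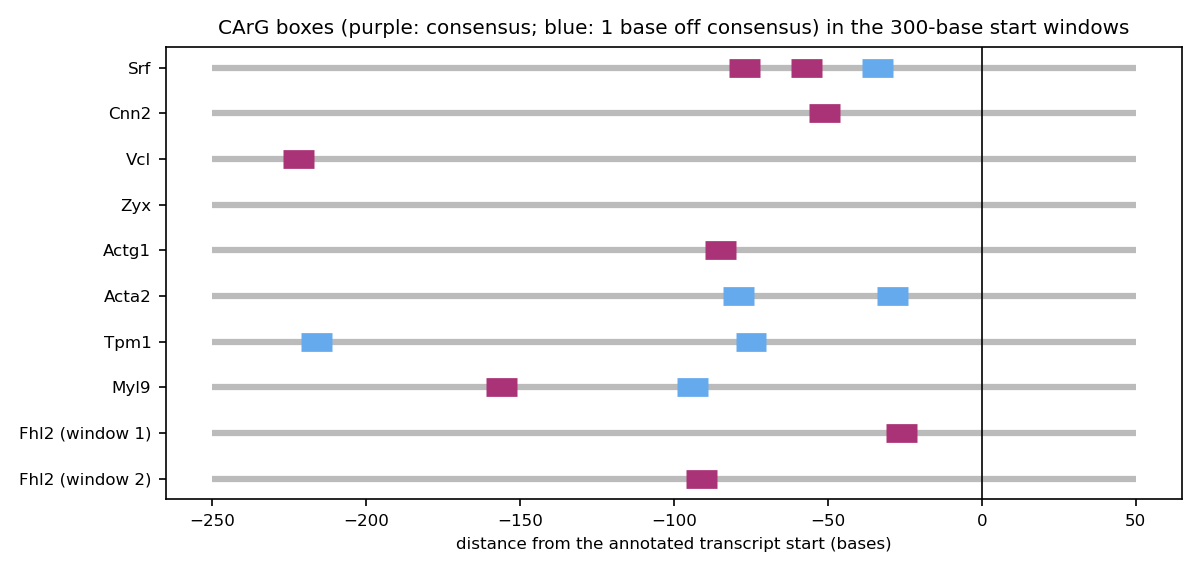
Position of CArG boxes in the start windows of 9 genes, in bases from the annotated transcript start, which is at 0. Grey bars are the windows, purple marks are consensus boxes and blue marks are sites 1 base away from the consensus; all marks lie before the start, and Srf has 2 consensus boxes.

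Array values are log2 expression after RMA, so a difference of 1 is a 2-fold change. Pearson's r between arrays across probe sets was 0.978 to 0.995. Control 4 h replicate 2 stood apart: its weight in limma's array weighting was 0.198, against 0.789 to 1.74 for the others, and r among the others was at least 0.991. Hmgn5 was lower on all 3 Hmgn5 siRNA arrays, at 3.49 ± 0.04 against 4.71 ± 0.06 in control cells at 24 h (mean ± SD, n = 3 each; limma adjusted p = 0.00367), a call lost when replicate 1 of the 24 h controls or either of the last 2 Hmgn5 siRNA arrays was left out (adjusted p up to 0.0558). Of 13 measured markers of sympathetic neuroblasts, 12 lay above 5.05, the level that 95% of 1105 olfactory receptor genes did not reach, which serves as a rough mark of background; Ddc did not. Over all genes 60% lay above that mark. Among the 10 genes, only Tagln lay below it, with a mean of 4.999 over all arrays, so little can be read from its values. Hmgn5 lay below the mark as well, with a mean of 4.21 over all arrays, so the size of its difference is not well measured.

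Between 4 h and 24 h in control cells, RNA of Acta2, Actg1, Tagln, Tpm1, Myl9 and Fhl2 showed no difference that passed the test. Srf, the calponin gene Cnn2 and the adhesion genes Vcl and Zyx fell, and none of the 10 rose (limma, adjusted p under 0.05 over all genes). That is 4 of 10, where 2.17% of all genes fell. Over all genes 481 rose and 482 fell, which became 477 and 309 with arrays centred on their medians, and all 4 of these genes were still called. The groups of arrays did not overlap for these 4 and for Actg1, all lower at 24 h, where 9.98% of all genes were lower without overlap. The median difference over the 10 genes was -0.10, and over all genes 0.02.

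Srf stood at 9.60, 9.60 and 9.59 on the 4 h arrays, 8.82, 8.88 and 8.77 on the 24 h control arrays and 9.06, 9.04 and 8.88 on the Hmgn5 siRNA arrays. The 4 h values lay within 0.01 of one another and far above every 24 h array. Srf fell by 0.77 over time (SE 0.07, 1.71-fold; limma adjusted p = 0.000547), which placed it 20th by p among the 22180 genes. Every alternative analysis run kept this call, and the difference was -0.77 without control 4 h replicate 2.

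Cnn2, an actin-binding calponin that stabilises filaments, had the largest difference of the 10 genes. Its values were 8.33, 8.06 and 8.20 at 4 h, 6.84, 6.97 and 7.04 in control cells at 24 h, and 7.41, 7.55 and 7.58 with Hmgn5 siRNA. The 3 groups did not overlap, with the Hmgn5 siRNA arrays in the middle. Cnn2 fell by 1.25 over time (SE 0.09, 2.38-fold; limma adjusted p = 0.000436), by which only 4 genes fell further. Its paralogues, Cnn1 of smooth muscle and Cnn3, had differences of -0.14 and 0.03 and did not pass (limma adjusted p = 0.585 and 0.867).

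The adhesion plaque genes Vcl and Zyx changed less. Vinculin couples integrin and cadherin complexes to actin filaments. Vcl stood at 8.99, 8.94 and 9.09 at 4 h, 8.68, 8.50 and 8.57 in control cells at 24 h and 8.77, 8.76 and 8.82 with Hmgn5 siRNA. It fell by 0.43 over time (SE 0.07, 1.34-fold; limma adjusted p = 0.0108). All 4 h arrays lay above all others. The call was lost without control 24 h replicate 2 (adjusted p = 0.0503) and in a fit of only the 2 groups (adjusted p = 0.0538). Zyxin is a LIM-domain protein of focal adhesions that responds to tension on stress fibres. Zyx stood at 9.86, 9.72 and 9.77 at 4 h, 9.24, 9.21 and 9.43 in control cells at 24 h and 9.43, 9.43 and 9.49 with Hmgn5 siRNA. It fell by 0.49 (SE 0.07, 1.40-fold; limma adjusted p = 0.00814), and the call was kept in every alternative run.

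Actg1, the cytoplasmic gamma-actin gene, was measured by 6 probe sets of its symbol. The brightest gave 10.98, 10.91 and 11.15 at 4 h, 10.89, 10.77 and 10.86 in control cells at 24 h and 11.07, 10.91 and 10.96 with Hmgn5 siRNA. Its difference over time was -0.17 (95% interval -0.35 to 0.00084; limma adjusted p = 0.28). Over the 6 probe sets the difference ran from -0.17 to 0.06, and 2 of them held the same values. Actin genes and their processed copies are nearly alike in sequence, so signals of the actin probe sets cannot be assigned to 1 gene with certainty. Actb, the cytoplasmic beta-actin gene, had a difference of 0.09 (limma adjusted p = 0.558).

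Acta2, Tpm1, Myl9, Fhl2 and Tagln showed no difference over time that passed. Acta2, smooth muscle alpha-actin, ranged from 6.02 to 6.42 at 4 h and from 6.15 to 6.26 in control cells at 24 h. Its difference was 0.05 (95% interval -0.18 to 0.28), and the highest of its 9 values was that of control 4 h replicate 2. Without that array the difference was 0.18 (limma adjusted p = 0.12).

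Tpm1, a tropomyosin that lies along actin filaments, differed by 0.02 (95% interval -0.13 to 0.17). Myl9, a regulatory light chain of non-muscle and smooth muscle myosin, differed by -0.02 (-0.23 to 0.19). Fhl2, a LIM-only protein that binds SRF and can compete with MRTF, differed by 0.01 (-0.26 to 0.27). For these 3 genes the intervals leave out a change as large as that of Srf or of Vcl in either direction. Tagln, an actin-bundling protein of smooth muscle, differed by 0.26 (-0.08 to 0.60), with its 3 4 h values spread from 4.63 to 5.21. Of the 3 genes with a consensus box that did not pass, Myl9 and Fhl2 lay near 0 and Actg1 at -0.17, while Zyx, with no match in its window, fell.

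**Figure D2:**
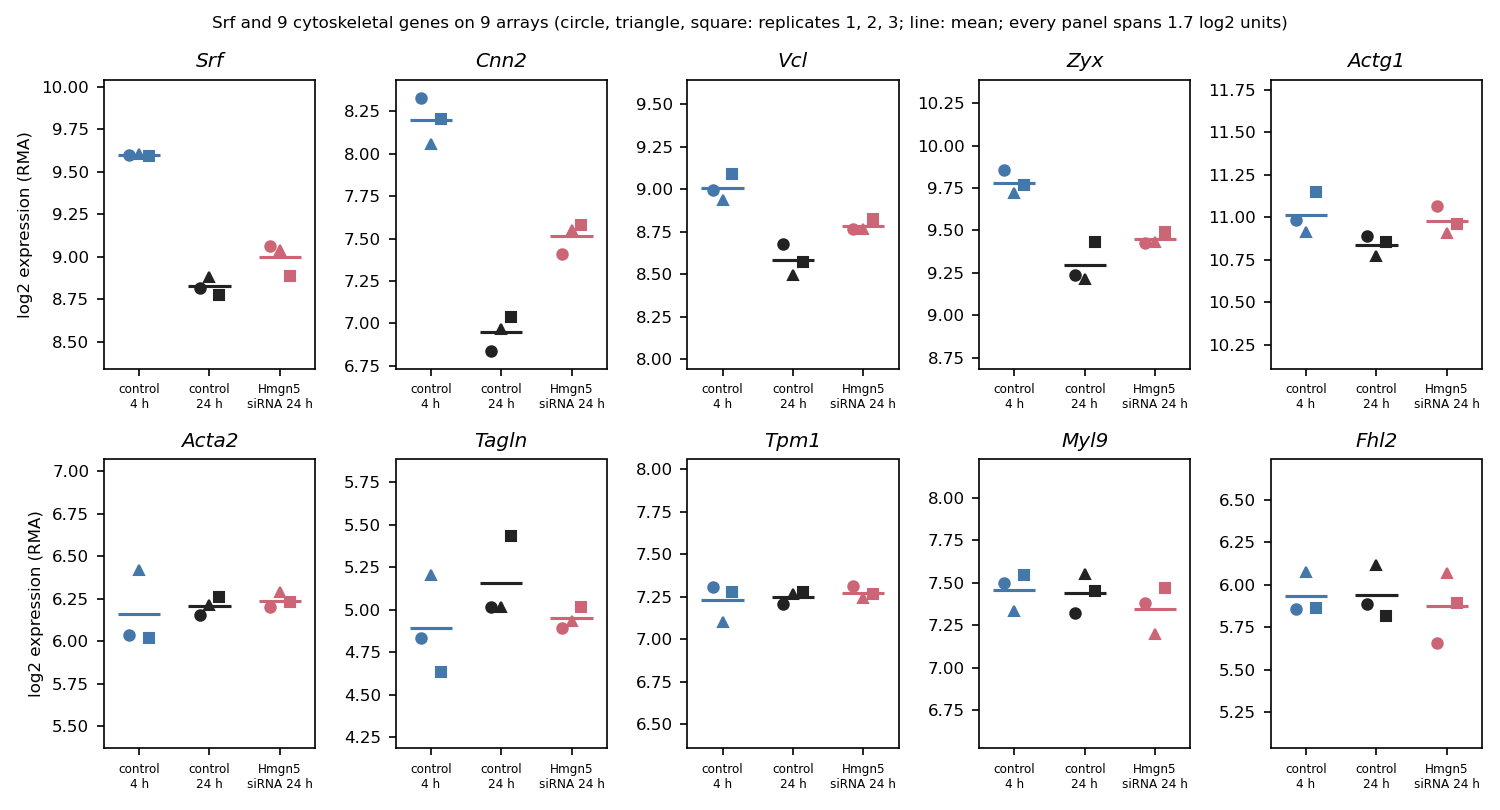
Log2 expression of Srf and 9 cytoskeletal genes on each of 9 arrays, by group. Symbols are replicates 1 to 3, lines are group means, and each panel spans the same log2 range; Srf, Cnn2, Vcl and Zyx are highest at 4 h on every array.

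With Hmgn5 siRNA at 24 h none of the 10 genes passed the test against control siRNA at 24 h, and 3 of 10 had an unadjusted p under 0.05, against 5.25% of all genes (limma). In this comparison 0.0135% of all genes passed. Srf, Cnn2, Vcl and Actg1 had Hmgn5 siRNA arrays that lay above all 24 h control arrays, which is 4 of 10 where 6.65% of all genes did so; none of the 10 was lower without overlap, where 5.62% of all genes were. For Srf this rests on a gap of about 0.001 between the highest control array and the lowest Hmgn5 siRNA array. The median over the 10 genes was 0.08, and over all genes -0.0019.

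Cnn2 came nearest to passing. Its Hmgn5 siRNA arrays were 0.57 above the controls (95% interval 0.37 to 0.76, SE 0.09, 1.48-fold; limma adjusted p = 0.208), which was 9th by p among all genes. Its adjusted p ran from 0.0541 to 0.75 over 17 alternatives, so none called it, and the difference stayed between 0.51 and 0.62. Vcl was 0.20 higher (95% interval 0.05 to 0.36; adjusted p = 0.846), Srf 0.17 higher (0.02 to 0.32; adjusted p = 0.926) and Zyx 0.16 higher (-0.0073 to 0.32; adjusted p = 0.975). These intervals are for single genes, with no correction for the number tested. Actg1 was 0.14 higher (adjusted p = 0.979), and its 6 probe sets gave 0.06 to 0.14.

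For Acta2, Tpm1, Myl9, Fhl2 and Tagln no interval lay clear of 0. The differences with Hmgn5 siRNA were 0.03 in Acta2 (95% interval -0.20 to 0.26), 0.02 in Tpm1 (-0.13 to 0.18), -0.09 in Myl9 (-0.30 to 0.12), -0.07 in Fhl2 (-0.33 to 0.20) and -0.21 in Tagln (-0.55 to 0.13). Their groups overlapped. The comparison over time and that with Hmgn5 siRNA share the 24 h control arrays, which are added in the first and subtracted in the second, so a chance deviation of those arrays moves the 2 differences apart.

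Setting Hmgn5 siRNA at 24 h against control siRNA at 4 h uses no 24 h control array in the difference, but siRNA and time differ together. Here 3 of the 10 genes were lower and none higher, where 1.04% of all genes were lower and 1.52% higher (limma, adjusted p under 0.05). The arrays of 4 of the 10 were lower without overlap, against 8.59% of all genes. Centring arrays on their medians turned 338 higher and 231 lower genes into 375 and 148, and left 2 of the 10 called. Srf was lower by a log2 difference of -0.60 (SE 0.07; adjusted p = 0.00397), Cnn2 by -0.68 (SE 0.09; adjusted p = 0.00678) and Zyx by -0.33 (SE 0.07; adjusted p = 0.048). Vcl, at -0.22, did not pass (adjusted p = 0.139), although it was the gene besides these 3 whose arrays did not overlap. Both Srf and Cnn2 were called in every alternative run, and Zyx in 7 of 17; its call was lost without any 1 array except control 4 h replicate 2 and control 24 h replicate 3 (adjusted p up to 0.155). The other 6 genes lay between -0.11 and 0.08.

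**Figure D3:**
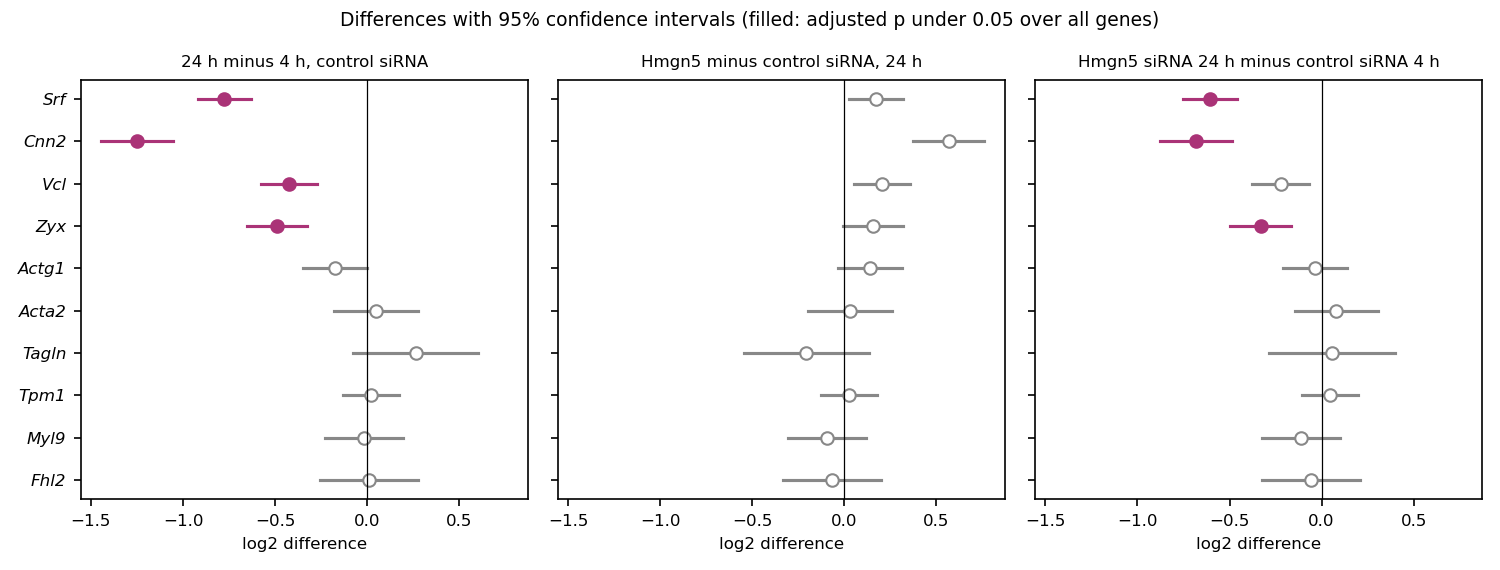
Log2 differences of the 10 genes in 3 comparisons, with 95% confidence intervals from limma; filled purple points passed at an adjusted p under 0.05 over all genes. Srf, Cnn2, Vcl and Zyx lie left of 0 over time, and no point is filled in the middle panel.

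Other cytoskeletal targets of MRTF and SRF were counted in the same way. Of 50 such genes 1 fell over time and none rose, where 2.17% of all genes fell and 2.17% rose. Their median was -0.0072, with 24 positive and 26 negative differences. The fall was that of Lima1, which cross-links actin filaments. It went from 7.28 ± 0.06 to 6.83 ± 0.20 (mean ± SD with n = 3, limma adjusted p = 0.0278). A consensus CArG box lay in its start window, but boxes were not counted over the other targets of this list. Lima1 no longer passed in 7 of 17 alternatives (adjusted p up to 0.102), namely a fit of only the 2 groups and the loss of any of the 4 h arrays, of replicate 2 of the 24 h controls or of either of the first 2 Hmgn5 siRNA arrays. Next by p were Actn1, an alpha-actinin (0.20), the non-muscle myosin heavy chain gene Myh10 (0.37) and Filip1l (0.25), which did not pass.

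At 24 h with Hmgn5 siRNA, 9 of these 50 targets lay above all control arrays and 1 below, 18% higher against 6.65% of all genes, and none passed (limma; 6 had an unadjusted p under 0.05). Lima1 was among the 9, at 0.27 (adjusted p = 0.855). Among 21 paralogues of the 10 genes, 3 were higher without overlap and none passed in any comparison. All 3 are among the 9 just counted, since 15 of the 21 paralogues are also in the list of 50. These 3 were the tropomyosin genes Tpm3 (0.24) and Tpm4 (0.33) and the LIM-only gene Fhl3 (0.28). Of the paralogues, Tagln3, the neuronal transgelin, had the smallest p over time (0.34; limma adjusted p = 0.14).

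None of SRF's cofactors or their regulators fell over time. Differences over time were 0.01 for Mrtfa and 0.10 for Mrtfb, the genes of the MRTF cofactors, and Elk1, Elk3 and Elk4 gave 0.16, -0.0029 and -0.10 (limma adjusted p between 0.466 and 0.985 for the 5). Myocd, the cofactor of heart and smooth muscle, lay below the background mark. In this list of 11 genes 2 rose, where 2.17% of all genes did, and both encode Phactr proteins, which bind actin monomers and protein phosphatase. Phactr3 rose by 0.42 (adjusted p = 0.0208) and Phactr2 by 0.37 (adjusted p = 0.0304). Phactr3 no longer passed in 5 of 17 alternatives (adjusted p up to 0.0847), namely a fit of only the 2 groups and the loss of control 4 h replicate 3 or of any of the 24 h controls. Phactr2 no longer passed in 9 of 17 (adjusted p up to 0.0907), namely with the replicate number as a block, in a fit of only the 2 groups and with 1 array left out, unless that was control 4 h replicate 2 or the last Hmgn5 siRNA array. Scai, which represses MRTF, gave -0.18 and did not pass.

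Upstream of MRTF, 1 of 24 genes of actin signalling rose and 1 fell, where 2.17% of all genes did each (median 0.02). Itgb3, an integrin subunit of adhesion sites, rose by 0.46 (limma adjusted p = 0.00444), in every alternative run. Diaph1, a formin that polymerises actin, fell by 0.33 (adjusted p = 0.046), a call that 12 of 17 alternatives lost, and that held to the loss of 1 array only for control 24 h replicate 2 (adjusted p otherwise up to 0.146). Rnd1, which loosens the cytoskeleton (0.47), and the cofilin kinase gene Limk1 (0.22) did not pass. None of the 24 passed with Hmgn5 siRNA (limma; none had an unadjusted p under 0.05).

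Immediate-early genes are the targets that SRF shares with the ternary complex factors. Of 15 such genes 2 rose over time and none fell, where 2.17% of all genes did each, and the median was -0.04. Btg2, an anti-proliferative gene, rose by 0.79 (limma adjusted p = 0.00358), and Dusp1, a phosphatase of MAP kinases, by 0.85 (adjusted p = 0.0252). Dusp1 no longer passed in 6 of 17 alternatives (adjusted p up to 0.0737), namely a fit of only the 2 groups and the loss of control 4 h replicate 1 or 2 or of any of the 24 h controls. The lower values of Fosb (-0.44) and Arc (-0.40) did not pass, and Fos and Egr1 gave -0.04 and -0.10. With Hmgn5 siRNA at 24 h none of the 15 passed (limma). Without overlap 2 were lower than control at 24 h and none higher, where 5.62% and 6.65% of all genes were. These were Btg2 (-0.25, limma adjusted p = 0.926) and Arc (-0.09).

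**Figure D4:**
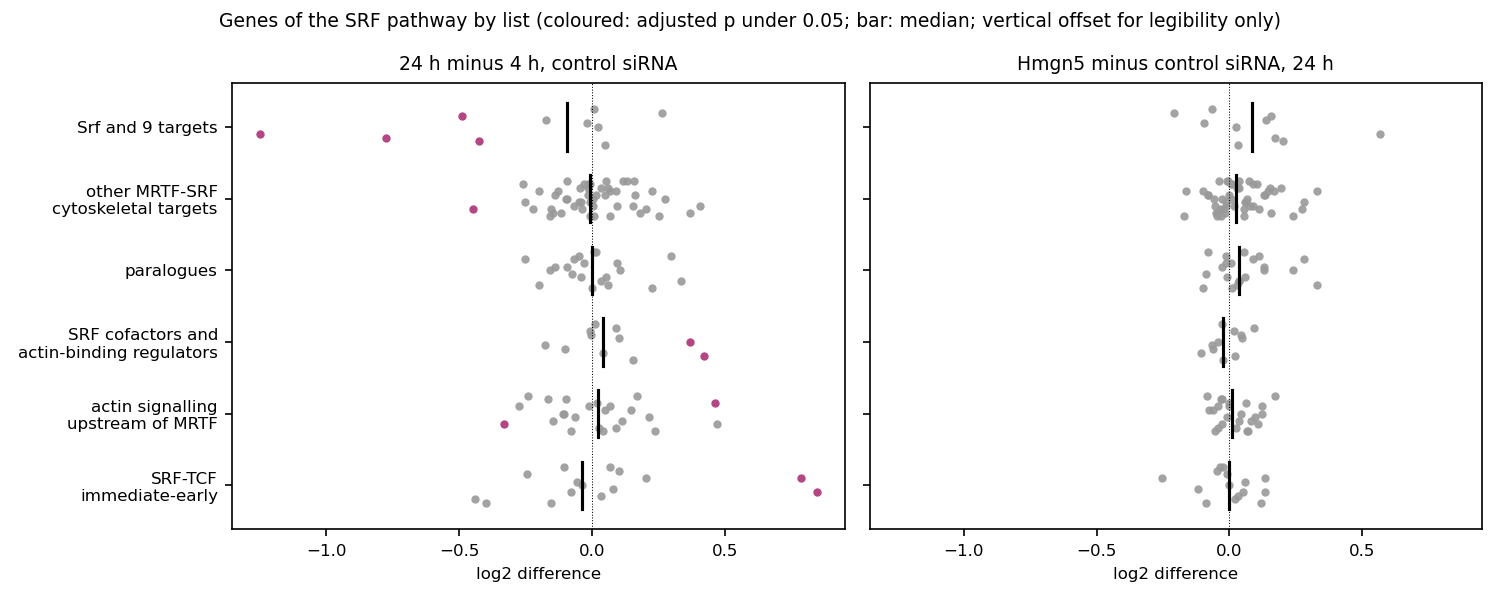
Log2 differences of the genes of 6 lists around SRF, over time in control cells and with Hmgn5 siRNA at 24 h. Each point is a gene, purple points passed at an adjusted p under 0.05 over all genes, and black bars are list medians; the 4 purple points furthest left in the left panel's top row are Cnn2, Srf, Zyx and Vcl.

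All genes with a consensus CArG box in a start window were also counted. Of 283 such genes among those tested, 14 fell over time and 5 rose, so 4.95% fell where 2.21% of the 16990 tested genes with a window did. Of those 16990 genes, 376 fell and 388 rose. The median of the 283 was 0.0046, and 0.02 over all tested genes with a window. Without the genes described above (Srf and its 9 targets), 11 of 277 fell, 3.97%. With Hmgn5 siRNA none of the 283 passed (limma), and 8.13% were higher without overlap against 6.91%. Without Srf and its 9 targets it was 6.86%. A box in a window is a match of letters and does not show that SRF binds there in these cells.

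Levels of markers of other cell types that express smooth muscle genes were compared as well, since fewer cells of a type and less RNA per cell cannot be told apart in bulk RNA. Of 12 smooth muscle markers, 8 lay above the background mark, as did 60% of all genes. Myocd, Cnn1, Kcnmb1 and Pln lay below it. The mean of the 12 per array was 5.83 to 5.85 at 4 h, 5.70 to 5.84 in control cells at 24 h and 5.70 to 5.85 with Hmgn5 siRNA. Of the 12, Des alone fell over time, where 2.17% of all genes did. This muscle intermediate filament gene went from 6.92 ± 0.23 to 5.998 ± 0.11 (mean ± SD, n = 3; limma adjusted p = 0.00575). Of 10 fibroblast markers, 4 lay above the mark, none passed in any comparison, and their mean ran from 4.91 to 4.997 over all 9 arrays. Of the 13 neuroblast markers, 2 rose over time and none fell, where 2.17% of all genes did each. Their differences were positive in 10 and negative in 3, against 12173 positive and 9998 negative over all genes. The mean of the list per array was 9.65 to 9.86 at 4 h, 9.93 to 10.01 in control cells at 24 h and 9.98 to 10.02 with Hmgn5 siRNA. The value of 9.65 was that of control 4 h replicate 2, the array that stood apart from the others. The 2 that rose over time were Dbh, by 0.80, and Th, by 0.53 (limma adjusted p = 0.00534 and 0.0188). Th did not pass when any of the 24 h controls was left out (adjusted p up to 0.0774). With Hmgn5 siRNA none of the 13 passed against control at 24 h. Without overlap 2 were lower and 1 higher, where 5.62% and 6.65% of all genes were. Dbh was among the lower ones, at -0.42 (limma adjusted p = 0.595). The part of these markers in the falls of Srf and its targets was not tested.

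Genes with profiles most like those of Srf and Cnn2 were sought by the root mean square difference of log2 values over the 9 arrays, each gene centred on its own mean. Nearest to Srf was Fxyd1, a regulator of the sodium pump, with a root mean square difference of 0.05, where Srf itself varied by 0.34 around its mean. It was followed by the nucleolar gene Nol8 (0.09), Btaf1 (0.09), which removes the TATA-binding protein from DNA, Jade3 (0.09), of histone acetyltransferase complexes, and the mitochondrial protease gene Atp23 (0.10). Nearest to Cnn2, which varied by 0.52, were Mamdc2 (0.14), Nxf7 (0.15), a relative of RNA export factors, the secreted phospholipase gene Pla2g2e (0.15), the siderophore-binding lipocalin gene Lcn2 (0.16) and Cdsn (0.18). These 10 genes were chosen for profiles like those of Srf and Cnn2, so that their lower values at 24 h follow from the choice. Their differences over time ran from -0.58 in Atp23 to -1.16 in Pla2g2e.

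**Figure D5:**
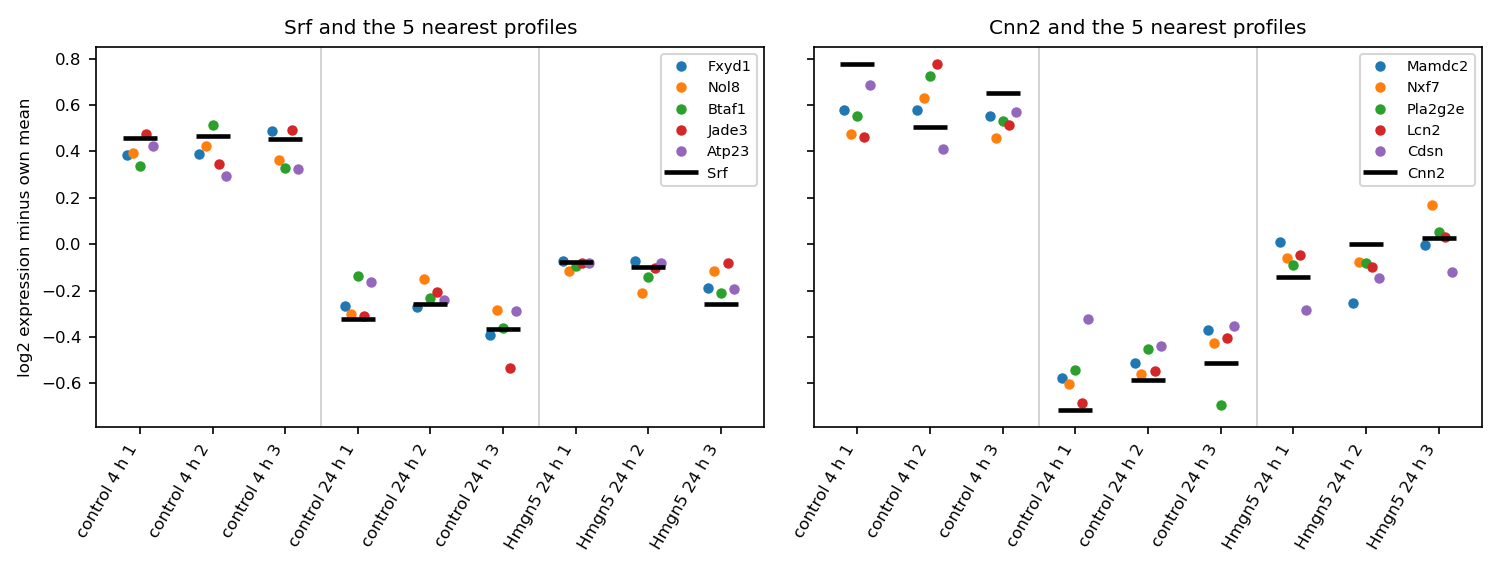
Log2 expression of Srf and of Cnn2 (black bars) and of the 5 genes nearest to each (points) on each of the 9 arrays, centred on each gene's own mean. All genes shown are high on the 4 h arrays and low on the 24 h control arrays.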

How the data were processed

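Per the labels' protocols, total RNA went through the Ambion WT amplification kit before hybridisation to Affymetrix arrays. RMA and oligo are named by the submitters' processing notes, and each deposited value is the log2 expression of a probe set. Versions and genome build are not given in the sources used here. RMA makes array distributions alike, so a shift shared by most genes is not visible. Of 41345 probe sets, 23521 had 1 gene symbol in the platform annotation. A gene was represented by its brightest probe set, which left 22180 genes.

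Differences were tested with limma 3.58.1 in R 4.3.3 (lmFit, eBayes, all 9 arrays in 1 fit), with Benjamini-Hochberg adjustment over all genes and calls at 0.05. The number of arrays limits the precision. The genes, lists and tests were chosen with earlier results of these data known. Named genes are the 10 genes, up to 4 per list with the smallest p over time, called paralogues, Hmgn5 and the 5 profiles nearest to Srf and to Cnn2. Others are named only to resolve a count or as partners, paralogues or examples, chosen after their values were seen. Start windows came from RefSeq (GRCm38.p6) and were searched for the CArG box with Python 3.11.15. The fit was tested on simulated data. Alternatives were the replicate number as a block, only the 2 groups compared, another prior, array weights, a filter on the dimmest 33% of genes, 2 normalizations, averaging the probe sets of a gene and leaving out each array.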

Additional observations from a re-analysis of the deposited data

How the results depend on the processing

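The fall of Srf, Cnn2 and Zyx over time was called under all 17 alternatives, and 3 or 4 of the 10 genes were called whichever array was left out. With Hmgn5 siRNA none of the 10 was called under any of the 17. Between Hmgn5 siRNA at 24 h and control at 4 h, 2 to 4 were called. Counts over all genes moved more, and the cause was not tested. Over time they were 1685 with array weights, 280 in a fit of only the 2 groups and 310 to 1238 with 1 array left out, lowest without control 24 h replicate 2 and highest without control 4 h replicate 2, against 963. With Hmgn5 siRNA they were 1 with the replicate number as a block, 5 with a trend and robust prior, 7 with array weights and 0 to 2 with 1 array left out, against 3; the 0 came without replicate 1 of the 24 h controls or either of the last 2 Hmgn5 siRNA arrays. Between Hmgn5 siRNA at 24 h and control at 4 h they were 1226 with array weights, 113 with only the 2 groups and 165 to 784 with 1 array left out, lowest without Hmgn5 siRNA replicate 2 and highest without control 4 h replicate 2, against 569.

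Among the 10 genes signs turned only where no call was made. Over time, Tpm1 gave -0.030 with array weights and, with 1 array left out, -0.041 to 0.061. Myl9 gave 0.022 with arrays centred on their median and -0.080 to 0.043 with 1 array left out, and Fhl2 gave -0.016 with cyclic loess and -0.078 to 0.080. Acta2 gave -0.020 to 0.18 with 1 array left out. With Hmgn5 siRNA, Fhl2 gave -0.16 to 0.042 with 1 array left out. Between Hmgn5 siRNA at 24 h and control at 4 h, Actg1 gave 0.012 with arrays centred on their median, 0.019 with the mean of its probe sets and -0.088 to 0.030 with 1 array left out. In the same comparison, leaving out 1 array gave -0.073 to 0.21 for Tagln, -0.017 to 0.084 for Tpm1 and -0.15 to 0.052 for Fhl2.

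Arrays with the same replicate number are not stated to be paired. Correlations of their deviations from group means were 0.00851 to 0.285, above 0.1 in 2 of 9 pairs, although 6 of 6 arrays correlated best with their own number among the 24 h groups and among the control groups, and 4 of 6 between Hmgn5 siRNA and control at 4 h. With the replicate number as a block, 4 of the 10 genes were called over time, none with Hmgn5 siRNA and 2 between Hmgn5 siRNA at 24 h and control at 4 h, where Zyx was lost (limma adjusted p = 0.062). Background correction and scan batches could not be varied, since only summarised values were used. Genes near or below the background mark, such as Tagln and Hmgn5, are those for which signal limits what can be said.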
